A study of Homo sapiens with 2 samples.

Results

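The ATP-binding cassette (ABC) genes were examined in RNA of SF-539 cells, a human glioblastoma cell line, with and without knockdown of FKBP9. Members were the protein-coding genes whose symbol is ABC, a subfamily letter from A to G and a number, which gave 45 of the 19951 protein-coding genes in the deposited table. ABCB1, ABCC1 and ABCG2, the members best known for drug efflux, are described apart. The control cells (shControl) carried the pGIPZ-CTRL lentivirus and the knockdown cells (shFKBP9) a lentivirus with an shRNA against FKBP9. Stable clones of both were selected with puromycin, and whether clones were pooled is not given in the sources used here. The cells grew in DMEM with 10% FBS, at passages 15 to 18, and the labels name no other drug. Each condition was sequenced as 1 library. Differences between the libraries therefore have no replicate check, and no test between the conditions could be made.

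ABC proteins use the energy of ATP to move lipids, drugs, peptides, metal complexes or conjugates across membranes, and most of them are exporters. Members of the E and F subfamilies lack membrane segments and act on ribosomes instead. P-glycoprotein (ABCB1), MRP1 (ABCC1) and BCRP (ABCG2) pump out a wide range of chemotherapeutic drugs, and ABCB1 and ABCG2 are known for keeping drugs out of the brain at its capillary wall. Puromycin is itself carried by P-glycoprotein.

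The shControl library held 18116873 fragments on genes and the shFKBP9 library 17158514. Levels are FPKM, fragments per kilobase of gene scaled to the size of the library, as deposited. Ratios are FPKM in shFKBP9 over FPKM in shControl, with an exact 95% Clopper-Pearson interval computed from the fragments that covers counting error only. FKBP9 itself had 49.8 FPKM in shControl and 4.68 in shFKBP9, so 9.39% of its level remained. The labels call the cells epithelial glioma cells. Among epithelial markers CDH1 had 0 and 1 fragments and only KRT8 reached 1 FPKM, and of 7 glial and neural stem markers SLC1A3 (8.60 and 9.14 FPKM) and NES (2.36 and 2.17 FPKM) did, while GFAP, SOX2, OLIG2, S100B and AQP4 did not. The 5 mesenchymal markers (VIM, CD44, FN1, COL1A1 and COL1A2) lay between 48.6 and 884 FPKM. All 5 endothelial markers, among them PECAM1 and CLDN5, stayed under 1 FPKM, with 47 (shControl) and 55 (shFKBP9) fragments in all.

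Of the 45 members, 20 reached 1 FPKM in at least 1 library (44.4%, against 51.9% of all protein-coding genes). A further 10 lay under 1 FPKM but summed to 10 fragments or more, 12 had fewer, and 3 (ABCA9, ABCG1 and ABCG8) had 0 fragments in both. ABCG1, which exports cholesterol to high-density lipoprotein, and ABCG8, which excretes sterols, were thus not detectable at this depth, and a count of 0 allows up to 3 fragments. In every subfamily but G at least 1 gene reached 1 FPKM.

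The sequence at the start of the genes is described by its content of the dinucleotide CpG, which is frequent at the starts of broadly expressed genes. RefSeq start regions (GRCh38.p14, 250 bases before and 50 after the start) were found for 35 of the 45 members, and where a gene had several, the one richest in CpG was taken. No region was found for ABCC1. The regions shown here are those of ABCG2 and ABCB1, the other drug-efflux genes, and of ABCF1, the most abundant member. The region of ABCB11, the bile salt export pump, which was close to silent, is also shown, and capitals mark each CpG. They lie at chr4:88158590-88158889 (minus strand, ABCG2), chr7:87600835-87601134 (minus strand, ABCB1), chr6:30571192-30571491 (plus strand, ABCF1) and chr2:169031275-169031574 (minus strand, ABCB11).
ABCG2: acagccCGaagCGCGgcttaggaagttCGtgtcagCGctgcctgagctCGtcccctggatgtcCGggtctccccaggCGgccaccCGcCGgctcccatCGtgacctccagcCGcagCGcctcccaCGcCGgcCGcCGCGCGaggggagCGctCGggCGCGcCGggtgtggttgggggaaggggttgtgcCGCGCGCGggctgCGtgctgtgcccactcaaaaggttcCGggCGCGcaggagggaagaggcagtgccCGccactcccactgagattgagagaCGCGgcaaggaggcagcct
ABCB1: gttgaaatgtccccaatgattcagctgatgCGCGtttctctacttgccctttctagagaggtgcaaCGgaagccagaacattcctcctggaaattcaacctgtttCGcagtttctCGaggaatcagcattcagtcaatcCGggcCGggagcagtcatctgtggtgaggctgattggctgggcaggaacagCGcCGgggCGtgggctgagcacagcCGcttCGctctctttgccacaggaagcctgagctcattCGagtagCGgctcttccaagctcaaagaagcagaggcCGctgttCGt
ABCF1: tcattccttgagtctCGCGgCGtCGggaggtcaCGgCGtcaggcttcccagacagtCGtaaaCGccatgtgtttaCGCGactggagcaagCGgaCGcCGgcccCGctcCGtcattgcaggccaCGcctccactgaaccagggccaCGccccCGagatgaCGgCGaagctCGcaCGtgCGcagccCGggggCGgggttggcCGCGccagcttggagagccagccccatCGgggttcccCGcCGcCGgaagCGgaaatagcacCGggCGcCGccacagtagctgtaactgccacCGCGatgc
ABCB11: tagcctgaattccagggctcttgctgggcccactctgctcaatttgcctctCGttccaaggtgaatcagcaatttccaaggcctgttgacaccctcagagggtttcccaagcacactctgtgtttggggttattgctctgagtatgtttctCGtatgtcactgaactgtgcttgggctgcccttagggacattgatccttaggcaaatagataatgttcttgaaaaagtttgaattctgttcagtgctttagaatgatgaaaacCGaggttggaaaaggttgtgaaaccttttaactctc

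The ABCF1 region held 37 CpG, or 1.05 times the number its base composition predicts. That of ABCG2 held 35 (0.902 times), that of ABCB1 16 (0.698 times) and that of ABCB11 only 3 (0.198 times). ABCG2, although under 1 FPKM in both libraries, thus had a start region near the median of 0.924 for members at 1 FPKM or more. That region was the richest of 5 for ABCG2, whose mean was 0.706, and of 2 for ABCB1, whose mean was 0.400. Of the 16 members at 1 FPKM or more with a region, 14 had at least 0.6 times the predicted number (87.5%, against 91.2% of all protein-coding genes at that level). Of the 19 members below 1 FPKM, 10 did so (52.6%, against 46.0%). When the regions of a gene were averaged, 14 of the 16 members (87.5%, against 84.1%) and 7 of the 19 (36.8%, against 40.0%) did so, and the order of members and background turned in both classes. The clearest exception was ABCC2, the conjugate exporter of the bile canaliculus, at 3.97 FPKM in shControl with 0.066 times the predicted CpG. ABCB8, at 8.51 FPKM, had 0.538 times. Because RefSeq starts were used, the start that SF-539 cells use for a gene was not tested.

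**Figure D1:**
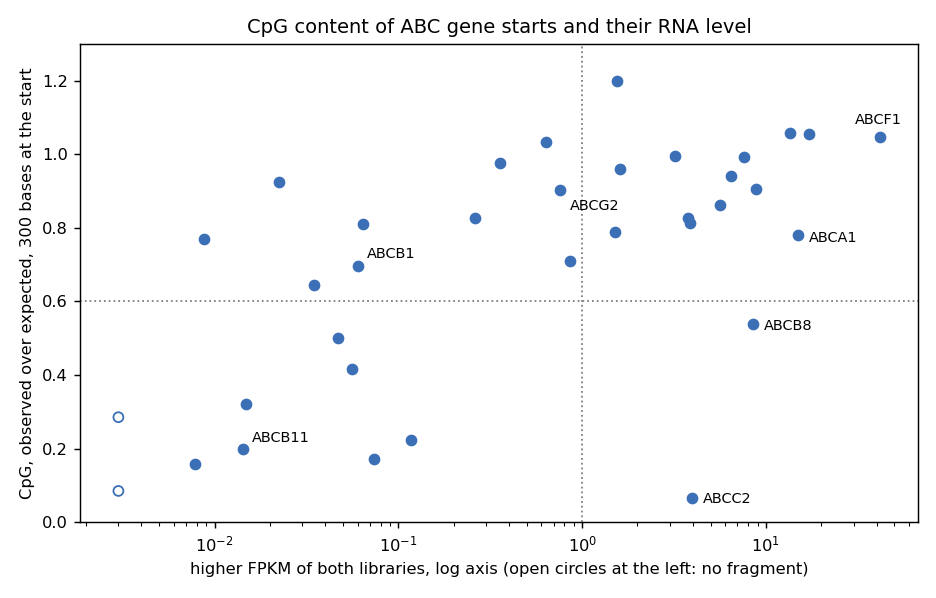
CpG content of the start region (observed over expected number, vertical axis) against the higher FPKM of both libraries (log axis) for the 35 ABC genes with a RefSeq region; dotted lines mark 1 FPKM and 0.6. Nearly all genes to the right of 1 FPKM lie above 0.6, with ABCC2 and ABCB8 below it, while genes to the left spread over the whole range.

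Among the drug-efflux genes, ABCC1 alone reached 1 FPKM. ABCC1 (ENSG00000103222; hg38, chromosome 16, 15949577 to 16143074), which exports drugs together with glutathione, had 11.1 FPKM (1528 fragments) in shControl and 9.83 FPKM (1278 fragments) in shFKBP9. Its ratio was 0.882 (95% counting interval 0.818 to 0.951), a slightly lower level in the knockdown library. Of the 45 members, only ABCF1, ABCF3, ABCA1 and ABCE1 were more abundant than ABCC1 in shControl.

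ABCG2 (ENSG00000118777; chromosome 4, 88090264 to 88231322), a pump that is used as a marker of side-population stem-like cells, was scarce in both libraries and more abundant in the knockdown. It had 0.350 FPKM (32 fragments) in shControl and 0.762 FPKM (66 fragments) in shFKBP9. The ratio was 2.18 (95% counting interval 1.41 to 3.43), and the log2 ratio with 0.1 added to both values was 0.94. In GENCODE release 44 its exons share 0 bases with another gene. Among the 1538 protein-coding genes with 50 to 200 fragments together, 2.15% were at least 2-fold higher in shFKBP9 by the plain FPKM ratio and 1.37% at least 2-fold lower. ABCG2 was the only member of the 4 in that range to pass in either direction, by a rule chosen after seeing the data. With 1 FPKM as the minimum it was not among the genes counted, and with 0.1 added to FPKM it did not reach 2-fold. Its log2 ratio was 0.38 with 1 added, 1.05 with TPM and 1.10 with 0.01 added. Even at its higher level ABCG2 lay below ABCC1, which had 9.83 FPKM in the same library.

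ABCB1 (ENSG00000085563; chromosome 7, 87503633 to 87713323) was listed at 0 in shControl, while the shFKBP9 library had 6 fragments on it (0.060 FPKM). Against the 3 fragments that a count of 0 allows (0.029 FPKM in shControl), the 6 fragments gave a ratio of 2.11. That ratio leaves out counting error on the 6 fragments, and the counting interval started at 1.24-fold. The counts of intervals took genes with at least 10 fragments, so ABCB1 was not among them. It remained the least abundant of the drug-efflux genes in both libraries. The span of ABCB1 overlaps that of RUNDC3B, a gene on the opposite strand, over 85776 bases, and RUNDC3B had 27 and 59 fragments, a log2 ratio of 0.99 with 0.1 added (95% counting interval without addition 0.52 to 1.92). Summed, the pair had 27 and 65 fragments. In GENCODE release 44 the exons of the pair share 0 bases, and whether fragments of RUNDC3B were counted on ABCB1 was not tested. ABCB4, the phosphatidylcholine exporter of bile and the neighbour of ABCB1 at a distance of 23198 bases, had 6 and 1 fragments, a ratio of 0.176 whose interval (0.0038 to 1.45) includes no difference. In these bulk libraries, a change in the number of cells that express a gene and a change in RNA per cell cannot be told apart.

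**Figure D2:**
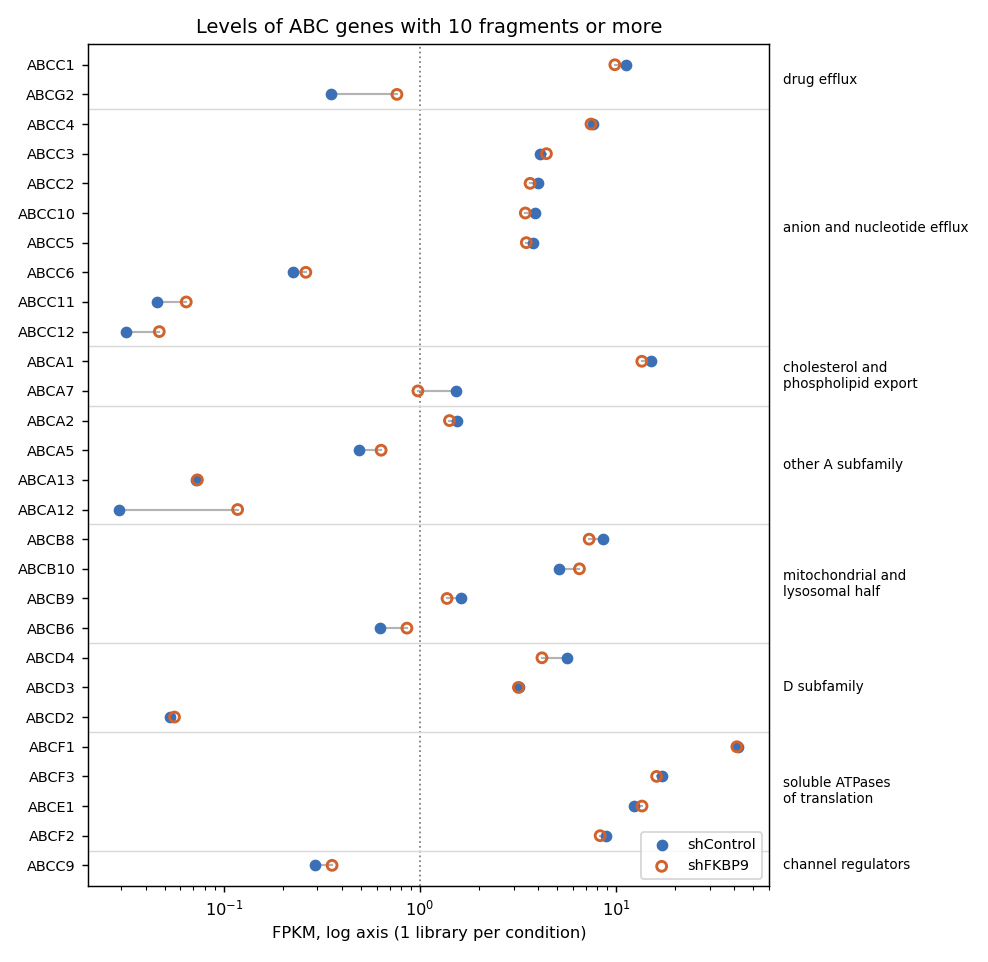
FPKM (log axis) of 28 of the 30 ABC genes with 10 or more fragments in all, by function; filled circles are shControl, open circles shFKBP9, 1 library each, and the dotted line marks 1 FPKM. The circles lie close together for most genes, and the widest gaps are those of ABCA12 and ABCG2, both under 1 FPKM.

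The other organic anion and nucleotide exporters of the C subfamily were expressed broadly and differed little. ABCC4 (MRP4), which exports cyclic nucleotides and prostaglandins, had 7.63 FPKM in shControl and 7.43 in shFKBP9, and ABCC5 (MRP5), another cyclic nucleotide exporter, 3.76 and 3.48. ABCC3 (MRP3) had 4.08 and 4.40 FPKM, ABCC2 (MRP2) 3.97 and 3.63, and ABCC10 (MRP7) 3.86 and 3.44. All 5 ratios lay between 0.890 and 1.08, and each interval included 1. Under 1 FPKM were ABCC6, ABCC11 and ABCC12. ABCC6, mutated in pseudoxanthoma elasticum, had 31 and 34 fragments, and its pseudogene ABCC6P2 had 18 and 12. Summed, the pair had 49 and 46 fragments, so the log2 ratio without addition went from 0.21 for ABCC6 alone to -0.01. ABCC6 lies 5854 bases from ABCC1 and had 0.226 FPKM in shControl, against 11.1 for its neighbour. The sulfonylurea receptors, which regulate potassium channels, were low, with 61 and 71 fragments on ABCC9 and 0 and 1 on ABCC8.

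The cholesterol and phospholipid exporters were carried by ABCA1 almost alone. ABCA1, which loads apolipoprotein A-I, had 15.0 FPKM (3084 fragments) in shControl and 13.5 FPKM (2628 fragments) in shFKBP9, a ratio of 0.899 (0.853 to 0.947). ABCA7, a phospholipid transporter and a risk gene for Alzheimer disease (chromosome 19, 1040101 to 1065572), had 1.52 FPKM (230 fragments) and 0.975 FPKM (140 fragments). Its ratio of 0.642 (0.517 to 0.795) was the lowest among the 20 members at 1 FPKM or more. ABCG4 and ABCG5 had 1 fragment each in shControl and 0 in shFKBP9. ABCA1 and ABCA7 were thus both lower in the knockdown library.

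The other A-subfamily lipid transporters were low. ABCA2, an endolysosomal transporter of brain, had 1.54 FPKM in shControl and 1.41 in shFKBP9, with a ratio of 0.914 (0.776 to 1.08). ABCA5 had 0.491 and 0.633 FPKM from 117 and 143 fragments, a ratio of 1.29 (1.003 to 1.66) whose interval included no difference at 99% and with TPM. ABCA12, the keratinocyte lipid transporter, had 5 and 19 fragments, a ratio of 4.01 with a wide interval (1.45 to 13.7), at 0.118 FPKM in the higher library. The antisense gene AC016708.1 within its span had 20 and 14 fragments, and the sources used here do not say whether strand was used in counting. On the cluster of chromosome 17 the neighbours of ABCA5 were near silent, with 0 and 5 fragments on ABCA10, 2 and 0 on each of ABCA6 and ABCA8, and none on ABCA9. Against 3 fragments in shControl the ratio of ABCA10 was 1.76, without counting error on its 5 fragments, and its counting interval started at 0.966. In GENCODE release 44, 318 of the exon bases of ABCA10 are shared with ABCA5. ABCA13 had 25 and 24 fragments. ABCA3, which loads surfactant in lung, and ABCA4, the retinoid transporter of photoreceptors, had at most 3 fragments in either library.

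Transporters of mitochondria and lysosomes in the B subfamily differed among themselves in direction. ABCB10, an inner-membrane protein of mitochondria linked to heme synthesis, was higher in shFKBP9, with 5.11 FPKM (394 fragments) against 6.49 FPKM (474 fragments) (ratio 1.27, 1.11 to 1.45). ABCB8, another mitochondrial inner-membrane protein, was lower, with 8.51 and 7.27 FPKM (ratio 0.854, 0.790 to 0.923). ABCB9, a lysosomal peptide transporter, had 1.61 and 1.37 FPKM (0.851, 0.731 to 0.990), and of its 13282 exon bases 2752 are shared with ENSG00000256028, 1656 with OGFOD2 and 1590 with ARL6IP4, all on the opposite strand. Its interval no longer excluded no difference with median scaling or at 99%. ABCB6, a porphyrin transporter, had 0.623 and 0.857 FPKM (1.38, 0.968 to 1.97), and 2841 of its 5205 exon bases are shared with a gene on the same strand, so its level is uncertain. The remaining B members, ABCB5 and ABCB11, had at most 3 fragments in either library.

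In the D subfamily, ABCD4 was lower in the knockdown library and ABCD3 differed little. ABCD4, which exports cobalamin from lysosomes (chromosome 14, 74285423 to 74303056), had 5.59 FPKM (888 fragments) in shControl and 4.18 FPKM (629 fragments) in shFKBP9, a ratio of 0.747 (0.673 to 0.828). Of its 8922 exon bases, 624 are shared with another gene. ABCD3 (PMP70), an abundant protein of the peroxisome membrane, had 3.20 and 3.17 FPKM (0.990, 0.863 to 1.13). ABCD2 had 6 fragments in each library. The peroxin PEX19, which brings D-subfamily proteins to peroxisomes, had 9.35 FPKM in both libraries, and PEX3 12.9 and 12.7.

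The soluble ATPases of the E and F subfamilies were the most abundant group, with 48.1% of the summed FPKM of all members in shControl and 49.3% in shFKBP9. ABCF1, which takes part in translation initiation, had 41.9 FPKM in shControl and 41.1 in shFKBP9, a ratio of 0.982 (0.935 to 1.03). ABCF3 had 17.2 and 16.0 FPKM and ABCF2 8.83 and 8.27, with ratios of 0.934 and 0.936. ABCE1, which splits ribosomes after termination, was the member of this group that was higher in shFKBP9, with 12.3 and 13.5 FPKM (1.10, 1.018 to 1.18), and 276 of its 6254 exon bases are shared with OTUD4 on the opposite strand, which had 966 and 1090 fragments. At 99% the interval of ABCE1 included no difference. Of its partners, the rescue factor PELO had 10.3 and 10.6 FPKM, its binding protein HBS1L 6.12 and 6.82, and the release factor ETF1 40.3 and 36.7.

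**Figure D3:**
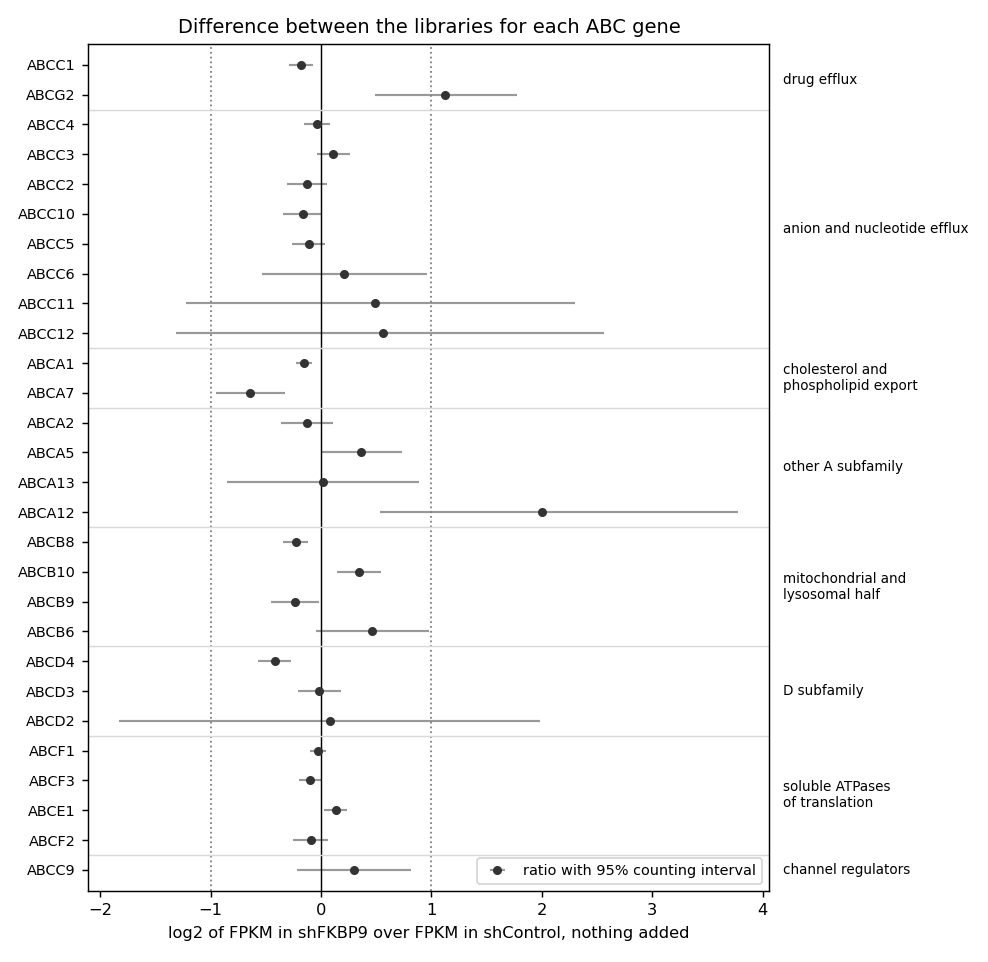
Log2 ratio of FPKM in shFKBP9 over shControl, with nothing added (points), and its 95% counting interval (bars) for 28 of the 30 ABC genes with 10 or more fragments, by function; dotted lines mark 2-fold. Only ABCG2 and ABCA12 lie beyond 2-fold, and the intervals of both reach back to less than 2-fold.

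Across the members, 0 of the 20 genes at 1 FPKM or more were 2-fold higher or lower in shFKBP9 with 0.1 added to FPKM. By that rule 0.213% of the 10346 protein-coding genes at this level were higher and 0.193% lower. At 1.5-fold, ABCA7 passed as lower (log2 ratio -0.59), and no member as higher, where 1.29% of protein-coding genes were lower and 1.13% higher. ABCA7 met the 1 FPKM minimum only through shControl (1.52 FPKM, against 0.975 in shFKBP9). With nothing added and at least 50 fragments, ABCG2 alone of 25 members passed 2-fold, as higher, where 0.346% of protein-coding genes were higher and 0.251% lower. The counting interval excluded no difference for 5 of 30 members as higher (ABCG2, ABCA12, ABCA5, ABCB10 and ABCE1) and for 6 as lower (ABCA1, ABCA7, ABCB8, ABCB9, ABCC1 and ABCD4). These shares, 16.7% and 20.0%, were near those of all protein-coding genes with 10 fragments or more, of which 16.7% were higher and 20.3% lower, and so are not a result about ABC genes. That interval compares the libraries and not the conditions.

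Of the 20 members at 1 FPKM or more, 16 had a lower FPKM in shFKBP9 and 4, ABCE1, ABCB10 and ABCC3 among them, a higher. Their median log2 ratio was -0.12 with 0.1 added, and the median of all protein-coding genes at this level was -0.02, with 53.7% of them lower. When the libraries were scaled to the median ratio, ABCD3 changed sign and 15 members were lower. All 10 members under 1 FPKM with 10 fragments or more had a higher FPKM in shFKBP9, and most of their counting intervals included no difference. For ABCD2 (6 and 6 fragments) and ABCA13 (25 and 24) this came only from the scaling to library size. ABCA13 changed sign with TPM, and ABCC6 when summed with its pseudogene. Of the 2696 protein-coding genes under 1 FPKM with 10 fragments or more, 48.6% were higher. The 12 members with 1 to 9 fragments were 5 higher and 7 lower. Together, 14 of the 30 members with 10 fragments or more were higher and 16 lower, with a median log2 ratio of -0.02, and over the 42 members with a fragment the median was -0.03, beside -0.01 for all protein-coding genes with a fragment. The summed FPKM of all members was 166.8 in shControl and 160.3 in shFKBP9.

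**Figure D4:**
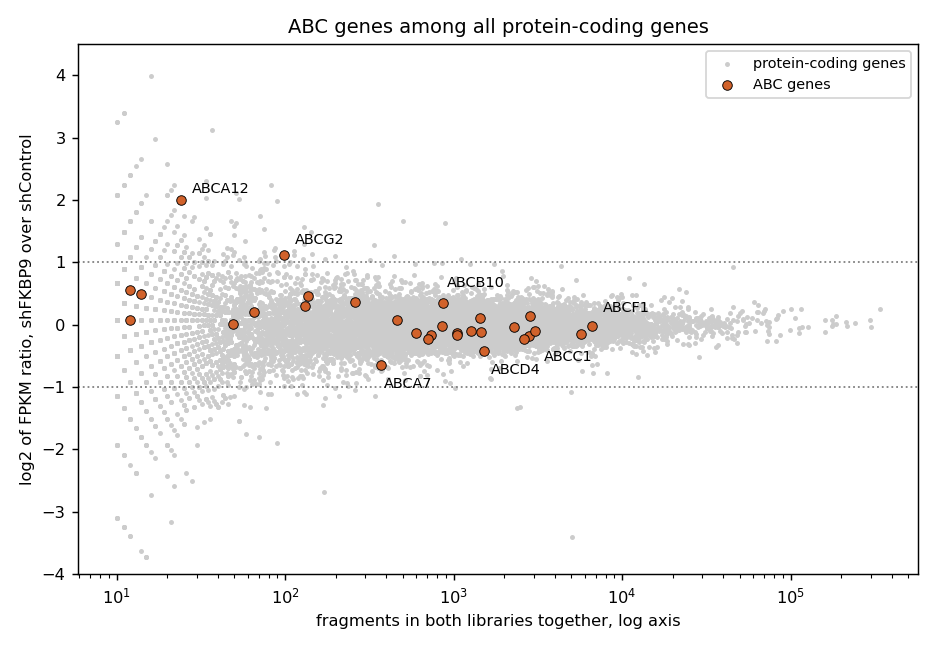
Log2 ratio of FPKM (vertical axis, nothing added) against fragments in both libraries together (log axis) for protein-coding genes (grey) and the ABC genes (orange); genes with 0 fragments in a library are not drawn. ABC genes with many fragments lie within the cloud near 0, and ABCG2, with 32 and 66 fragments, lies at its upper edge.

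Genes that work with ABC transporters or are known to control them were taken from a list of 51 symbols, 50 of which were found, with SLC9A3R1 listed under both its symbols. At 1 FPKM or more there were 36, and 0 of them passed 2-fold in either direction. The counting interval lay above no difference for 7 of the 43 with 10 fragments or more and below it for 14 (16.3% and 32.6%, beside 16.7% and 20.3% of all protein-coding genes). Of the nuclear receptors that drive ABCA1 and ABCG1, NR1H2 (LXR beta) had 29.6 FPKM in shControl and 29.2 in shFKBP9, and NR1H3 (LXR alpha) 2.99 and 3.46. NR1I2 (PXR), which induces ABCB1 in liver, had 0 fragments in both libraries. Factors of stress responses that act on efflux genes were somewhat higher in shFKBP9, with NFE2L2 (NRF2) at 10.7 and 13.0 FPKM, HIF1A at 109.6 and 133.3, and AHR at 7.04 and 8.09. PPARG had 57 and 25 fragments, at 0.694 and 0.321 FPKM. It was alone among the 38 listed genes with 50 fragments or more to pass 2-fold with nothing added, as lower. Of all protein-coding genes with 50 fragments or more 0.251% were lower, and of those with 50 to 200, the range of PPARG, 1.37%.

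The glutathione synthesis genes GCLC (3.89 and 4.90 FPKM) and GCLM (3.05 and 3.58), whose product ABCC proteins use, were also higher, while GSS, the last enzyme of that route, had 23.0 and 21.8. PLTP, which transfers phospholipid between lipoproteins, had 212.5 and 180.3 FPKM, and APOE, the lipid acceptor of brain, had 8 and 12 fragments. MVP, the major vault protein, had 63.4 and 61.7 FPKM. MSN (moesin), which anchors membrane proteins to actin, was lower, at 131.4 and 104.5. TAP1 and TAP2, ABC genes by structure that transport peptides for MHC class I, had 10.0 and 8.84 FPKM and 5.37 and 5.21. CFTR, an ABC protein that acts as a chloride channel, had 0 and 4 fragments.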

How the data were processed

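RNA-Seq values were available for 1 library of each condition. Per the labels and methods, the authors cleaned the paired-end reads, mapped them to hg38 with HISAT2 2.0.5 and assigned them to genes with featureCounts 1.5.0-p3 (versions from the submitters' processing notes); the annotation release and the use of strand are not given in the sources used here. The values deposited by the authors are FPKM per gene, with gene length and position. FPKM times length was a whole multiple of a fixed step for 100% of values above 0 (largest deviation from a whole number 8.32e-09), which gave the fragments per gene, so that 1 fragment on 1 kilobase is 0.0552 FPKM in shControl and 0.0582 in shFKBP9.

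Log2 ratios used 0.1 added to both FPKM, and calls at 2-fold required 1 FPKM in either library. Clopper-Pearson intervals were computed from fragments without addition, and counts of intervals that exclude no difference took genes with at least 10. The submitters' processing notes also name edgeR; with 1 library per condition no count model was fitted here and no p-value is given. A library at 0 was set to 3 fragments for a ratio, which leaves out counting error in the other library. Fragment recovery, fold calls and intervals were tested on simulated data.

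Every member could be named, except 2 that are not reported singly here but stay in the counts and sums, with the genes of the partner list that reached 1 FPKM or 2-fold, TAP1, TAP2 and CFTR, FKBP9, ABC pseudogenes and overlapping genes. PPARG, NR1I2, APOE, RUNDC3B and the genes sharing exons or spans with members were named after their values were seen. Members and lists were chosen with earlier results of these data known. Alternatives were another addition, scaling by the median or to TPM, other minimums and folds, a 99% interval and sums with pseudogenes. The split of directions by level and the averaged start regions' background were added after seeing the data. Start regions came from RefSeq, exons from GENCODE release 44. Calculations used scipy 1.17.1 with pandas 2.3.3 under Python 3.11.15 (numpy 2.4.6), and plots matplotlib 3.10.9.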

Additional observations from a re-analysis of the deposited data

How the results depend on the processing

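With 1 added to FPKM the log2 ratio was 0.38 for ABCG2 and 0.084 for ABCB1. That of ABCG2 was 0.95 with median scaling, 1.05 with TPM and 1.10 with 0.01 added. The log2 ratio of ABCB1, 0.68 with 0.1 added, was 2.81 with 0.01 added and 1.68 with TPM, so that with 0 fragments in shControl its size is set by the addition. Counts of members past 2-fold, 0 higher and 0 lower, became 1 lower at 1.5-fold (ABCA7) and 1 higher with nothing added, at 50 fragments or more and at 50 to 200 (ABCG2), rules chosen after seeing the data. Without a minimum, 1 partner gene passed as higher, APOA1 with 0 and 5 fragments. With a 99% interval, 3 members in place of 5 lay above no difference (ABCA12, ABCB10 and ABCG2) and 5 in place of 6 below it, without ABCB9, which also left with median scaling. The median log2 ratio of -0.12 became -0.03 over all members with a fragment and lay between -0.14 and -0.09 otherwise. ABCC6 went from 0.21 to -0.01 with its pseudogene summed. With TPM, ABCA5 left the higher members and ABCC10 and ABCF3 joined the lower. Members with few fragments have wide intervals at this depth, as for ABCB4. No paired analysis was possible because each condition had 1 library.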
